A study of Homo sapiens with 8 samples.

Results

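The genes described here encode the proteasome and the factors that assemble it, in SQ20B cells, an established human cell line from a head and neck squamous cell carcinoma. They were defined by a rule on gene symbols: PSMA, PSMB, PSMC, PSMD, PSME, PSMF or PSMG followed by a digit, together with POMP. PSMB8 and PSMB9 were left out. The choice was made with earlier results of these data known. The rule found 51 genes with 100 listed transcripts, out of 14528 named genes and 24812 transcripts. Of the 51, 45 genes with 87 transcripts encode proteasome proteins or their assembly factors, and the other 6 only share the letters and are given at the end. Poly(A)+ RNA was sequenced from 4 normoxic and 4 hypoxic samples, the latter held at 0.5% oxygen for 16 h, all of the same line. The squamous markers KRT5 (398 and 442 FPKM) and TP63 (42.8 and 44.6) were present in both conditions, and the hypoxia-induced genes CA9 (0.694 and 21.6 FPKM) and NDRG1 (6.19 and 300.0) were far higher in the hypoxic value. The authors' table gives 1 FPKM value per transcript and condition over its replicates. FPKM scales the fragment count of a transcript to its length and to the size of the library, so levels of different genes can be compared, but only as parts of the whole RNA of a sample. Since each condition is 1 value, no error between replicates could be computed, no difference below was tested, and the table gives no read depth, which was not analysed here.

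The proteasome degrades proteins that carry chains of ubiquitin. Its core particle is a barrel of stacked rings, with outer alpha rings (PSMA genes) that gate the entrance and inner beta rings (PSMB genes) that carry the proteolytic sites. The regulatory particle sits on the barrel: a base with a ring of ATPases (PSMC genes) unfolds the substrate, and non-ATPase subunits (PSMD genes) bind and remove ubiquitin. The complex is known in hypoxia biology because it degrades HIF-1 alpha in oxygenated cells after hydroxylation and ubiquitination. Subunits are needed in fixed proportions, and their genes are known to be induced together by the transcription factor NFE2L1 when proteasome activity is low.

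All 45 proteasome genes were lower in hypoxia in the values as deposited. The 45 do not hold every subunit. Of subunits outside them, ADRM1 (log2 change -0.93) and PSMB8 (-0.65) were lower, whereas SEM1 (0.10) and PSMB9 (0.01) were not. FPKM was summed over the transcripts of a gene, and the log2 change is hypoxia minus normoxia after adding 0.1 FPKM to each, given for the 12106 genes whose mean was 0.5 FPKM or more. The median change was -0.48, which is 28.2% lower, with a range from -1.10 for PSMG3 to -0.13 for PSME1, and 26 of the 45 genes lay between -0.6 and -0.35. The median of all 12106 genes was -0.07, and 56.4% of them were below 0. All 45 proteasome genes lay below that median, so that the direction relative to the median gene was the same for every one of them. When the columns were scaled to equal FPKM sums, which adds 0.23 to each change, PSMC5, PSME1 and PSME4 came out higher, and with quantile normalization PSMA2 and PSME1 did.

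The difference was common in direction and modest in size. At a limit of 1.5-fold, 10 of the 45 genes (22.2%) were lower and 0 were higher, against 11.2% lower and 9.95% higher of all genes. The share past the limit lay above that of all genes only as deposited and after centring: it was 2.22% against 4.96% with equal FPKM sums, 6.67% against 9.69% with quantile normalization and 11.1% against 8.76% after centring on the median gene. These shares have no replicate check. The 10 were PSMA5, PSMB2, PSMB10, PSMC6, PSMD6, PSMD8, PSMD9, PSME3, PSMG1 and PSMG3. PSMB2 (1.5003-fold) stood just inside the limit and PSMC3 (1.49-fold) just outside it. Abundant genes as a whole were more often lower than higher in the deposited values, and 41 of the proteasome genes had a mean of at least 20 FPKM. Of these 41, 8 (19.5%) were at least 1.5-fold lower, against 14.2% of the 3871 genes in the series at that level. Of the 3871, 72.5% were below 0, against all 41 of the proteasome genes. The standard deviation between genes of the log2 change was 0.18 for the proteasome genes, 0.49 for the abundant genes and 0.55 for all genes. In other complexes, described below, it was 0.14 (chaperonin CCT) and 0.24 (cytosolic ribosomal proteins).

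**Figure D1:**
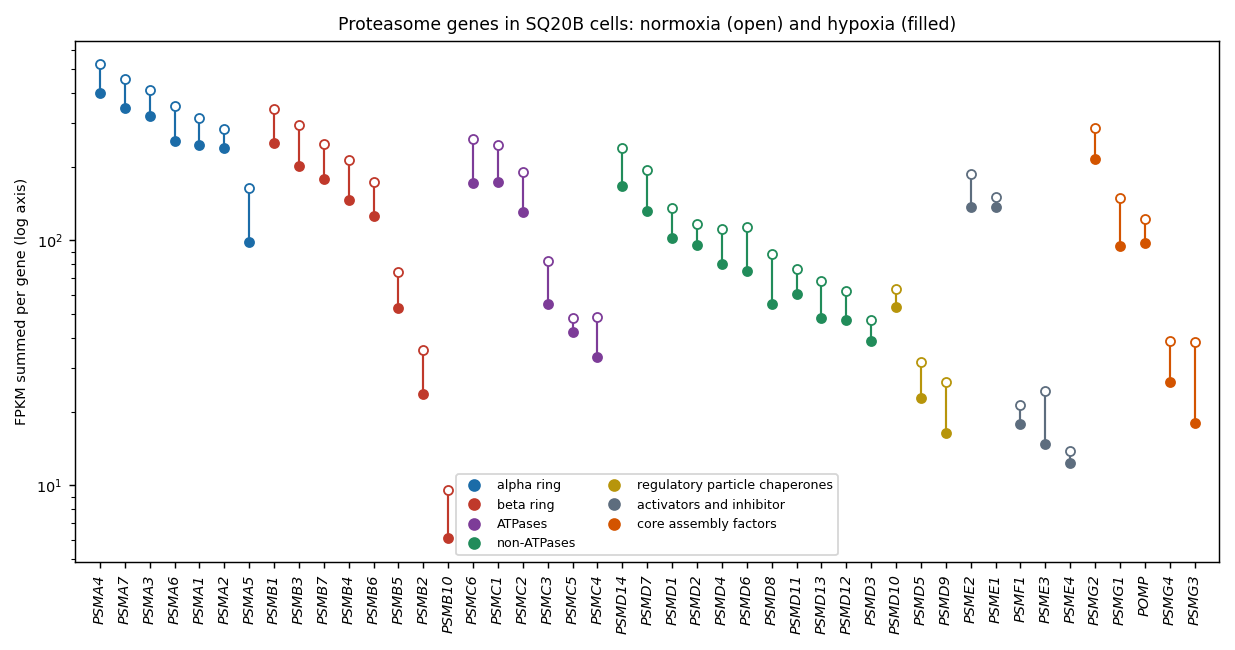
FPKM summed per gene (log axis) for the 45 proteasome genes, with normoxia as open and hypoxia as filled circles joined by a line; each circle is the authors' 1 value for that condition and colours mark the classes. Every filled circle lies under its open one, and levels run from 522 FPKM for PSMA4 to 9.59 FPKM for PSMB10 in normoxia; after scaling to equal sums PSMC5, PSME1 and PSME4 would be higher in hypoxia, and after quantile normalization PSMA2 and PSME1.

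The alpha ring genes were the most abundant class. PSMA4 was at 522 FPKM in normoxia and 401 in hypoxia, PSMA7 at 456 and 345, and PSMA3 at 409 and 323. In between, PSMA6 was at 354 and 255 FPKM and PSMA1 at 314 and 244. The class held its largest and smallest changes in its least abundant members. PSMA5, the least abundant of the 7, was at 164 and 98.8 FPKM (log2 change -0.73), the second lowest among the 45 genes. PSMA2 was at 284 and 238 FPKM (-0.25), and with quantile normalization it came out higher (0.069). The class median was -0.38, and without PSMA5 the changes ran from -0.48 (PSMA6) to -0.25. The summed FPKM of the class was 24.0% lower in hypoxia, and the highest member exceeded the lowest 3.19-fold in normoxia and 4.06-fold in hypoxia.

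The beta ring genes differed by nearly the same amount. The 8 log2 changes lay between -0.65 (PSMB10) and -0.45 (PSMB1), with a median of -0.52 and the smallest standard deviation of any class, 0.07. The catalytic subunits of the constitutive proteasome were close to one another. PSMB6, the caspase-like subunit, was at 173 FPKM in normoxia and 126 in hypoxia (log2 change -0.46). PSMB7, the trypsin-like subunit, was at 246 and 178 FPKM (-0.47), and PSMB5, the chymotrypsin-like subunit, at 74.4 and 53.0 FPKM (-0.49). Structural members PSMB1, PSMB3 and PSMB4 were at 342, 296 and 213 FPKM in normoxia and 250.5, 201 and 146 in hypoxia. PSMB2, another structural subunit, was far less abundant, with 35.5 and 23.6 FPKM (-0.59).

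Immunoproteasome subunits replace the catalytic ones in cells exposed to interferon. PSMB10, which takes the place of PSMB7, was at 9.59 FPKM in normoxia and 6.09 in hypoxia (log2 change -0.65), and its share of the summed FPKM of the pair was 3.75% and 3.31%. PSMB8 and PSMB9, which the rule left out, were compared as the partners of PSMB5 and PSMB6. Their listed loci are on an alternate haplotype of chromosome 6 (6_ssto_hap7), and how this affected the reads assigned to them was not tested. PSMB8 was at 71.9 and 45.8 FPKM (-0.65), nearly level with PSMB5, and held 49.2% of that pair in normoxia and 46.4% in hypoxia. PSMB9 was at 21.7 and 21.8 FPKM (0.01), so that its share of the pair with PSMB6 was 11.1% in normoxia and 14.8% in hypoxia. Both PSMB8 and PSMB10 were thus at least 1.5-fold lower while PSMB9 was level in the deposited values and higher with equal sums (0.24) and quantile normalization (0.12), without a test. PSMB8 and PSMB10 were both under the limit with equal sums (-0.42 each) and after centring (-0.58 each), PSMB8 also with quantile normalization (-0.46), and PSMB10 also when 1 was added in place of 0.1 (-0.58).

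**Figure D2:**
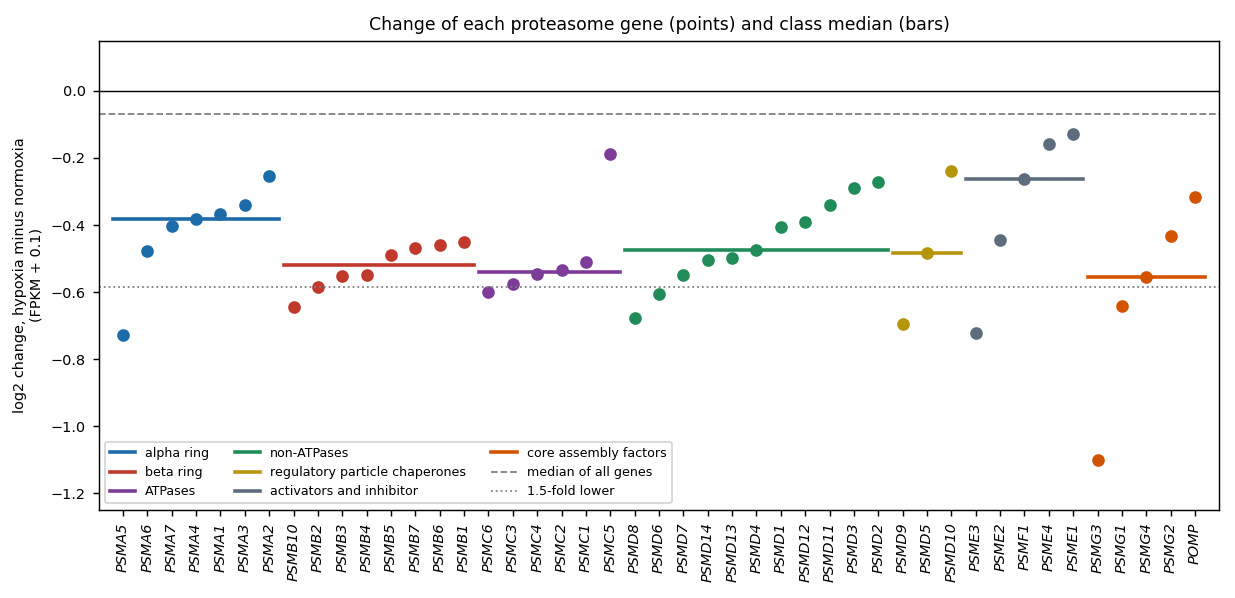
Log2 change, hypoxia minus normoxia on the FPKM + 0.1 scale, of each of the 45 proteasome genes (points). Bars mark the class medians, the dashed line the median of all genes (-0.07) and the dotted line the 1.5-fold limit. All 45 points lie below the dashed line and 10 below the dotted one, PSMG3 (-1.10) being the lowest; after scaling to equal sums, PSMC5, PSME1 and PSME4 would lie above 0, and after quantile normalization PSMA2 and PSME1.

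Among the ATPases of the base, 5 of the 6 were close together and PSMC5 stood apart. PSMC6 was at 259 FPKM in normoxia and 171 in hypoxia (log2 change -0.60), PSMC1 at 246 and 173 (-0.51) and PSMC2 at 190 and 131 (-0.54). PSMC3 was at 82.2 and 55.1 FPKM (-0.58) and PSMC4 at 48.9 and 33.4 (-0.55). PSMC5, at the same level as PSMC4 in normoxia with 48.0 FPKM, was at 42.2 in hypoxia (-0.19), the third smallest difference of the 45 genes, and it came out higher (0.038) with equal FPKM sums. The listed locus of PSMC5 also holds FTSJ3, and the part that reads shared between overlapping genes may have in its value was not tested. PSMC4 and PSMC5 thus exchanged their order between the conditions.

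The 11 non-ATPase subunits with a PSMD symbol had a median log2 change of -0.48. PSMD14, the deubiquitinase that cuts ubiquitin chains from the substrate, was the most abundant, with 238 FPKM in normoxia and 167 in hypoxia (-0.50). PSMD8, a lid subunit, was at 88.3 and 55.2 FPKM (-0.68), the lowest change of the class. PSMD6, also of the lid, was at 114 and 74.7 FPKM (-0.61). PSMD7, the partner of PSMD14, was at 194 and 132 FPKM (-0.55). The smallest differences were those of PSMD2, a large scaffold subunit of the base, with 116 and 96.1 FPKM (-0.27), and of the lid subunit PSMD3, with 47.3 and 38.7 FPKM (-0.29). PSMD1, the other large scaffold of the base, was at 135 and 102 FPKM (-0.41), and the ubiquitin receptor PSMD4 at 112 and 80.3 FPKM (-0.48). The remaining lid subunits with a PSMD symbol, PSMD11, PSMD12 and PSMD13, had changes of -0.34, -0.39 and -0.50. SEM1, a lid subunit without such a symbol, was higher as deposited (0.10) and is described below.

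Core and regulatory particle were lower to almost the same extent in the deposited values. The median log2 change was -0.47 over the 15 core genes and -0.50 over the 20 PSMC and PSMD genes, a difference of 0.03. The 20 include the assembly chaperones PSMD5, PSMD9 and PSMD10, whereas the 15 leave out the assembly factors of the core. ADRM1 and SEM1, described below, are in neither set. Without the chaperones the regulatory median was -0.50 and the difference 0.04. The summed FPKM of the core genes went from 3895 to 2889, which is 25.8% lower, and that of the regulatory particle genes from 2246 to 1601, 28.7% lower. The ratio of the sums was 1.73 in normoxia and 1.80 in hypoxia. Past the 1.5-fold limit were 3 of the 15 core genes and 4 of the 20 regulatory particle genes (the same share of each, against 11.2% of all genes and 14.2% of abundant ones), and 0 of either with equal FPKM sums. Within the core, the beta ring median was 0.14 below that of the alpha ring, and within the regulatory particle the ATPase median was 0.07 below that of the non-ATPases. The alternatives left the difference between the particle medians between 0.03 and 0.10, the highest value coming from quantile normalization. With that scaling the medians were -0.16 for the core and -0.25 for the regulatory particle, and the summed FPKM differed by -0.13 and -0.24 (log2). In level the particles differed more: the median core gene was at 284 FPKM in normoxia and 201 in hypoxia, against 85.2 and 57.8 for the regulatory particle. The latter values include the less abundant chaperones (median 31.8 FPKM in normoxia). Medians of the ATPases and non-ATPases were 136 and 112 FPKM in normoxia, and 93.0 and 74.7 in hypoxia.

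Assembly of the core particle depends on dedicated chaperones. PSMG3, which works with PSMG4 in the assembly of the alpha ring, was at 38.5 FPKM in normoxia and 17.9 in hypoxia, 2.14-fold lower, and was the only one of the 45 genes past 2-fold (log2 change -1.10). Its listed locus lies on chromosome 7 of hg19 (1606969 to 1609668). Its partner PSMG4 started at the same level, 38.8 FPKM, and was at 26.4 in hypoxia (-0.56). PSMG1 was at 148 and 94.9 FPKM (-0.64), and PSMG2, with which it forms a pair, at 289 and 214 FPKM (-0.43). POMP, which helps to complete the barrel, was at 122 and 97.99 FPKM (-0.32). In both pairs of chaperones, then, 1 partner was more than 1.5-fold lower as deposited and the other was not, without a test of the difference. PSMG4 (1.47-fold) stood just outside the limit. PSMG3 stayed past it with equal sums (-0.88), centring (-1.03) and quantile normalization (-0.98). PSMG1 did not (-0.42, -0.57 and -0.40), and with quantile normalization PSMG4 was at -0.41. Of the regulatory particle chaperones with a PSMD symbol, PSMD9 was at 26.5 and 16.3 FPKM (-0.69). PSMD5 was at 31.8 and 22.7 FPKM (-0.48), and PSMD10 at 63.4 and 53.7 (-0.24).

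The alternative activators showed both the smallest differences and one of the largest. PSME1 and PSME2 form a ring that caps the core particle and are induced by interferon. PSME1 was at 150 FPKM in normoxia and 137 in hypoxia (log2 change -0.13), the smallest difference of all 45 genes, whereas PSME2 was at 186 and 137 FPKM (-0.45). The levels of these partners, unequal in normoxia, were thus almost identical in hypoxia. The listed locus of PSME1 also holds EMC9. PSME3, the subunit of a nuclear activator ring, was at 24.3 and 14.7 FPKM (-0.72). PSME4, a large single-chain activator, was at 13.8 and 12.4 FPKM (-0.16). PSMF1, described as an inhibitor of the core particle in vitro, was at 21.4 and 17.8 FPKM (-0.26). With equal FPKM sums the changes of PSME1 and PSME4 became 0.10 and 0.065, and with quantile normalization that of PSME1 became 0.14.

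Of the 78 transcripts of proteasome genes with a mean of at least 0.5 FPKM, 70 were lower and 8 higher. The 23 genes with more than 1 such transcript held 56 of them, of which 48 were lower and 8 higher, and 8 of these genes had transcripts in both directions. At the 1.5-fold limit 28.2% of the 78 were lower and 3.85% higher, against 14.3% and 10.5% of the 18190 transcripts in the series. These shares are for the deposited values alone and were not computed for abundant transcripts or other scalings. Per gene, the share lower fell below that of all genes with equal sums and with quantile normalization. In all 45 genes the same transcript had the highest FPKM in both conditions, and 18 genes had a single listed transcript. A transcript's share of its gene moved by over 5 percentage points in 2 genes, PSMF1 and PSMD9. Directions and share moves of transcripts were not counted over the whole series. Whether these counts differ from those of other genes with several transcripts was therefore not tested.

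In PSMF1, on chromosome 20 of hg19 (1093905 to 1148426), the listed transcripts went opposite ways. NM_178578 was at 17.2 FPKM in normoxia and 10.9 in hypoxia (log2 change -0.66), and NM_006814 was at 4.16 and 6.90 FPKM (0.72). The share of NM_006814 in the summed PSMF1 FPKM was 19.5% in normoxia and 38.8% in hypoxia. The small change of the gene as a whole was therefore the sum of a lower and a higher transcript. In PSMD9, NM_002813 was at 8.74 and 4.17 FPKM (-1.05) and NM_001261400 at 17.1 and 12.1 (-0.50), so that the share of NM_002813 was 33.0% in normoxia and 25.5% in hypoxia. In PSMG3, both transcripts were lower: NM_001134340, which held 88.2% of the normoxic FPKM, was at 34.0 and 14.98 FPKM (-1.18), and NM_032302 at 4.53 and 2.92 (-0.62). Of the other higher transcripts, PSMA6 NM_001282234 was at 2.57 and 3.99 FPKM (0.62), and PSMD2 NM_001278708 at 17.2 and 17.3 (0.02). The remaining 5, of PSMA3, PSMB2, PSMB6, PSME1 and PSMG1, were below 1.2 FPKM in both conditions. How Cufflinks divided reads between transcripts of 1 gene was not tested.

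**Figure D3:**
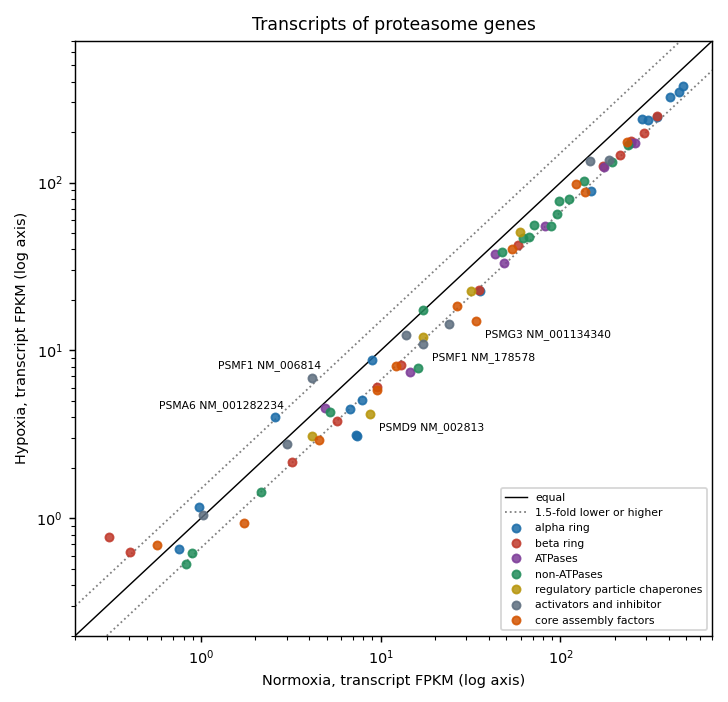
FPKM in normoxia (x, log axis) and hypoxia (y, log axis) of the 78 transcripts of proteasome genes with a mean of at least 0.5 FPKM, coloured by class; the solid line marks equal values and the dotted lines 1.5-fold. In all, 70 points lie below the solid line, and PSMF1 NM_006814 (4.16 and 6.90 FPKM) lies above it while PSMF1 NM_178578 (17.2 and 10.9 FPKM) lies below.

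A list of 33 further symbols was followed, of which 31 were analysed here. It holds genes that feed substrates to the proteasome, adaptors and genes that control its genes. It also holds the subunits ADRM1, SEM1, PSMB8 and PSMB9, which are not among the proteasome genes above. Counts and medians of the list are therefore not those of genes outside the complex alone. Of the 31 genes, 22 were lower and 9 higher as deposited, 15 and 16 with equal FPKM sums, and 16 and 14 with quantile normalization. Over all 12106 genes these counts were 6831 and 5275, 4392 and 7714, and 6230 and 5858. The median log2 change of the 31 genes was -0.23 as deposited. Past 1.5-fold were 4 genes, all lower (12.9%, against 11.2% of all genes), among them UBB, ADRM1 and PSMB8, and 0 were higher. This count held only as deposited. With equal sums 1 gene was past the limit lower (ADRM1) and 2 were past it higher (UBA1 and NFE2L1). These are 3.23% and 6.45% of the list, against 4.96% and 18.2% of all genes. With quantile normalization 2 were lower and 2 higher (6.45% each), against 9.69% and 10.0% of all genes. After centring 3 were lower and 2 higher (9.68% and 6.45%), against 8.76% and 12.4%. ADRM1, the ubiquitin receptor of the regulatory particle that lacks a PSMD symbol, was at 17.1 FPKM in normoxia and 8.91 in hypoxia (-0.93). SEM1, a small subunit of the lid, was at 249 and 266 FPKM (0.10). UBB, a polyubiquitin gene, was at 788 and 469 FPKM (-0.75), while RPS27A, which encodes ubiquitin fused to a ribosomal protein, differed less (-0.28; -0.054 with equal sums). RAD23B, a shuttle that brings ubiquitinated proteins, was at 180 and 130 FPKM (-0.46).

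Of the 6 regulators of the subunit genes listed, 3 were lower and 3 higher as deposited. NFE2L1 was at 19.4 FPKM in normoxia and 28.8 in hypoxia (0.57), just under the 1.5-fold limit as deposited and past it with equal sums (0.79) and quantile normalization (0.69). NFE2L2, a related factor of the antioxidant response, was at 39.8 and 39.7 FPKM (-0.0032; 0.22 with equal sums), and NGLY1, the glycanase that processes NFE2L1, at 28.7 and 29.8 (0.06). Of their small MAF partners, MAFF was at 8.19 and 8.90 FPKM (0.12), MAFG at 4.93 and 3.53 (-0.47) and MAFK at 1.15 and 1.04 (-0.13; 0.0725 with equal sums). Outside the regulators, UBA1, the main ubiquitin-activating enzyme, was at 19.6 and 29.1 FPKM (0.56). USP14 and UCHL5, deubiquitinases that bind the regulatory particle, had changes of 0.04 and -0.46. Of the segregase VCP and its cofactors, VCP, UFD1 and NPLOC4 had changes of -0.32, -0.49 and -0.43, and NSFL1C one of -0.054 that became 0.17 with equal sums. The list's median was -0.23 as deposited and 0.00015 with equal FPKM sums, a scaling that put the median of all genes at 0.15. Relative to the median of all genes it was at -0.16 as deposited, -0.15 with equal sums and -0.053 with quantile normalization.

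Other large complexes were set beside the proteasome. The 8 subunits of the chaperonin CCT, which folds actin and tubulin, were all lower under each scaling, with a median log2 change of -0.79 as deposited and 7 of the 8 past the 1.5-fold limit (against 11.2% of all genes), a count that was 4 with equal sums and 1 with quantile normalization. That median was 0.31 below the one of the proteasome genes, and only CCT8 (-0.47) lay above the proteasome median. The 70 cytosolic ribosomal protein genes above the FPKM limit had a median of -0.28, with 65 lower and 5 higher (46 and 24 with equal sums, 38 and 28 with quantile normalization) and 7.14% past 1.5-fold lower, below the 11.2% of all genes. In the deposited values the proteasome genes therefore stood between these complexes, and differences between the groups were not tested. The summed proteasome FPKM was 1.34% of the whole table in normoxia and 1.15% in hypoxia.

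**Figure D4:**
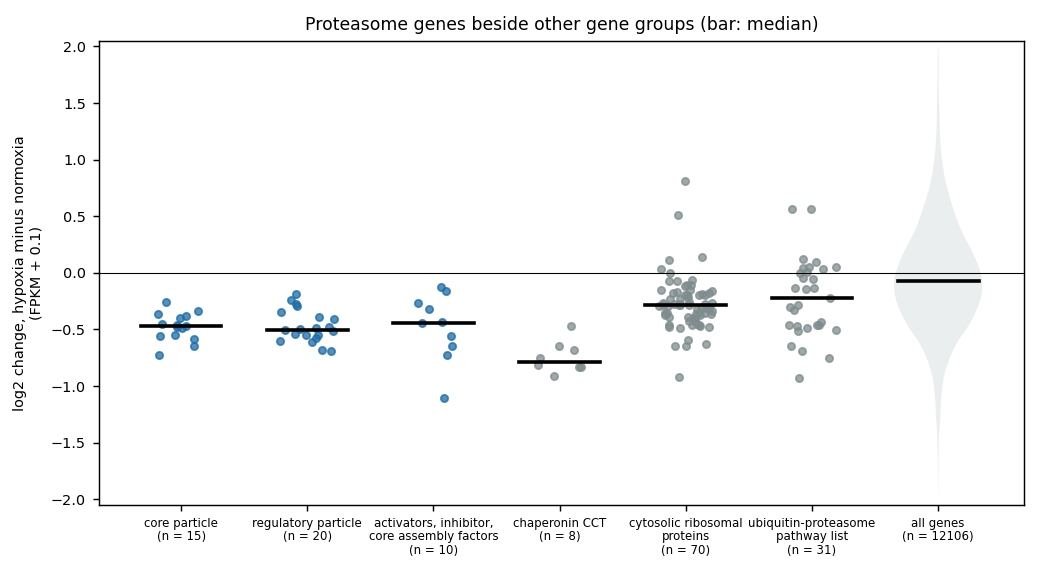
Log2 change, hypoxia minus normoxia on the FPKM + 0.1 scale, of single genes (points, spread sideways for visibility) in the proteasome particles, the chaperonin CCT, cytosolic ribosomal proteins and the pathway list, with the density of all 12106 genes at the right (77 genes beyond 2 in size not drawn) and medians as bars. The core (-0.47) and regulatory (-0.50) medians lie between those of CCT (-0.79) and the ribosomal proteins (-0.28).

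Since NFE2L1 acts through the antioxidant response element, the proteasome promoters were searched for its core. RefSeq promoters (GRCh38.p14, from 250 bases before to 50 after the gene start) were matched for 39 of the 45 genes. The other 6 (PSMA7, PSMB1, PSMB6, PSMB7, PSMD4 and PSMG3) had no promoter matched and were not searched. The 39 genes have 47 listed promoters. The core TGANNNNGC, read on both strands (GCNNNNTCA on the other), was in 27 of the 47 (57.4%), in 41.8% of all 35116 promoters and in 42.4% of the promoters of genes above the FPKM limit. The hypoxia response core ACGTG was in 21.3% of the proteasome promoters, 21.4% of all and 25.7% of those of genes above the FPKM limit, and CCAAT in 38.3%, 34.6% and 35.7%, also on both strands. The median log2 change was -0.49 over the 24 genes with the antioxidant core and -0.51 over the 15 without it. A match is a run of letters and does not show binding. To show what such a match looks like, the nearest upstream match is printed below for the gene with the lowest change in each class among those with a match before every listed start, 5′ to 3′ on the gene's strand, with the match in capitals.
PSMA5, chr1:109426514-109426543, minus strand: aagcgcgttgGCCCAATCAcctaggcggga
PSMB3, chr17:38752627-38752656, plus strand: gcctccgtttTGACTTTGCaaccaaactac
PSMC4, chr19:39971109-39971138, plus strand: cttcccagaaGCCTCCTCAgccagggactt
PSMD8, chr19:38374507-38374536, plus strand: ggggtggtgtTGAGACAGCtgtcattttca
PSMD9, chr12:121888678-121888707, plus strand: cggcttccggTGACCCAGCtccgccctaag
PSME2, chr14:24146766-24146795, minus strand: ccctggactgTGACCCAGCcagcaccgcct
PSMG1, chr21:39183580-39183609, minus strand: gggcgtggccGCGAGCTCAgggtgtgcctg

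These matches lie between 46 bases (PSMC4) and 175 bases (PSME2) before the start. Those of PSMA5, PSMC4 and PSMG1 read on the opposite strand, and that of PSMA5 overlaps a CCAAT box. PSMD9 and PSME2 hold the same 9 letters. The genes printed differ in change, from -0.73 for PSMA5 to -0.45 for PSME2.

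Of the 6 genes that only share the letters, PSMC3IP, a factor of meiotic recombination, was at 12.5 FPKM in normoxia and 10.4 in hypoxia (log2 change -0.26). PSME3IP1, which encodes a protein that binds PSME3, was at 59.4 and 47.3 FPKM (-0.33). The other 4 are antisense genes. PSMA3-AS1 was at 17.6 and 18.3 FPKM (0.06) while PSMA3 in the same listed locus was lower. PSMD6-AS2 was at 0.687 and 1.47 FPKM (1.00) in the locus of PSMD6. PSMB8-AS1 was at 11.97 and 10.2 FPKM (-0.22), and PSMG3-AS1 at 0.164 and 0.215 FPKM lay below the limit. The kit kept strand, but whether the counting used it was not stated, so values of these genes and their partners are uncertain. The listed loci of 7 proteasome genes also hold another gene, these being PSMA3, PSMB7, PSMC5, PSMD1, PSMD6, PSME1 and PSMG2. RefSeq also lists 52 pseudogenes named for 21 of the 45 proteasome genes, and how reads shared with them were assigned was not tested.

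How the columns are scaled moved the size of the proteasome difference. The median of the 45 genes was -0.48 as deposited, -0.25 with equal FPKM sums and -0.21 with quantile normalization. Scaling to equal sums moved the median of all genes to 0.15, and quantile normalization moved it to -0.019. The proteasome median stood below that of all genes by 0.41 as deposited, by 0.40 with equal sums and by 0.19 with quantile normalization. Equal sums also left 1 proteasome gene, PSMG3 (-0.88), past 1.5-fold, while the counts over all genes went from 1361 lower and 1204 higher to 601 and 2204.

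**Figure D5:**
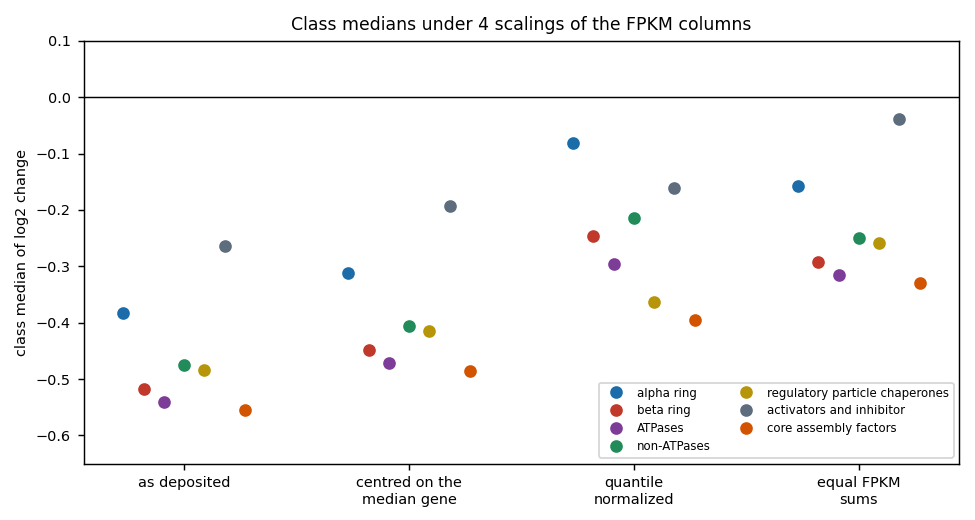
Median log2 change of each proteasome class with the FPKM columns as deposited, centred on the median of all genes, quantile normalized and scaled to equal sums. All medians stay below 0, the nearest being -0.039 for the activators and inhibitor with equal sums.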

How the data were processed

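SQ20B cells in normoxia and in 0.5% oxygen for 16 h were compared, with 4 samples each. The authors aligned stranded poly(A)+ reads to RefSeq hg19 with STAR 2.3.0.1 and ran the Cufflinks suite 2.1.1. The FPKM values were deposited by the authors as 1 value per transcript and condition. The authors' fold changes, test statistics, p-values and q-values stand beside them and were not used. Depth of single samples was not analysed here.

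Transcripts were paired with symbols through RefSeq (GRCh38.p14, names only; 97.9% of transcripts matched), and FPKM was summed per gene. Changes are differences of log2(FPKM + 0.1), and genes with a mean of at least 0.5 FPKM were used. With 1 value per condition there was no test. The planned comparison of protein sequences was not made. Members, lists and limits were chosen with earlier results of these data known. Named genes are the extremes and the most abundant member of each class, members past 1.5-fold, those with several transcripts, the catalytic subunits and pathway genes past 1.5-fold. Further members and pathway genes were named after their values were seen. Alternatives changed the scaling (equal sums, centring, quantile), the added value, the FPKM and fold limits, and took the most abundant transcript in place of the sum. Some genes of the pathway list are not reported here by name. The calculation was tested on simulated data. Python 3.11.15, numpy 2.4.6, pandas 2.3.3, scipy 1.17.1 and matplotlib 3.10.9 were used.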

Additional observations from a re-analysis of the deposited data

How the results depend on the processing

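No paired analysis was possible because each condition is 1 value over its replicates; for the same reason no replicate could be left out. A median was taken as moved when it differed by more than 0.1 (log2). Equal FPKM sums gave medians of -0.16 for the alpha ring, -0.29 for the beta ring, -0.32 for the ATPases, -0.25 for the non-ATPases, -0.26 for the regulatory particle chaperones, -0.039 for activators and inhibitor, -0.33 for core assembly factors, -0.25 for all proteasome genes, -0.24 for the core, -0.28 for the regulatory particle, 0.00015 for the pathway list, -0.56 for CCT, -0.059 for ribosomal proteins and 0.15 for all genes. The summed core and regulatory FPKM then differed by -0.21 and -0.26, the count of proteasome genes past the limit was 1, the counts over all genes were 601 lower and 2204 higher, and PSMC5 (0.038), PSME1 (0.10) and PSME4 (0.065) turned. Quantile normalization gave, in the same order of classes, -0.082, -0.25, -0.30, -0.21, -0.36, -0.16 and -0.40, then -0.21 for all proteasome genes, -0.16 for the core, -0.25 for the regulatory particle, -0.072 for the pathway list, -0.45 for CCT and -0.024 for ribosomal proteins. The summed FPKM of the particles differed by -0.13 and -0.24, 3 proteasome genes passed the limit, and PSMA2 (0.069) and PSME1 (0.14) turned. Centring left 5 proteasome genes past the limit. A 1.2-fold limit gave 40 proteasome genes lower, and 3990 lower and 2881 higher genes in all; a 2-fold limit gave 1, 317 and 388. A mean of at least 20 FPKM gave 551 and 173 genes in all and a median of -0.21. Adding 1 in place of 0.1 gave 719 higher genes. The most abundant transcript alone moved the activators and inhibitor to -0.45, since it leaves out the higher PSMF1 transcript. The difference between the core and regulatory particle medians stayed within 0.1 of its main value (0.03) under every alternative run. That tolerance is wider than the main value itself, and quantile normalization gave a difference of 0.095.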
